A study of Mus musculus with 6 samples.

Results

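The active chromatin mark H3K9ac, in which a lysine of histone H3 carries an acetyl group, was examined at the genes of Rab GTPases, VPS proteins and sorting nexins in mouse lung endothelial cells that lack CSE and in WT cells. CSE, cystathionine gamma-lyase, produces cysteine and hydrogen sulfide and is the product of the gene Cth. The genes were chosen by name: every peak of the deposited table was taken whose assigned gene symbol starts with Rab, Vps or Snx followed by a digit. This gave 148 of 17901 peaks and 98 of 11191 named genes, made up of 62 peaks of 46 Rab names, 36 peaks of 26 Vps names and 50 peaks of 26 Snx names. A few names under the rule are not GTPases, VPS subunits or nexins themselves. They include the Rab11 adaptors (Rab11fip2, Rab11fip3 and Rab11fip5) and the Rab3 regulators Rab3gap1, Rab3gap2 and Rab3il1. The others are Rab5if, named for its interaction with Rab5, Vps9d1, named for its VPS9 domain, and the opposite-strand transcripts Rab10os and Rab26os. Vps72, a chromatin protein that the rule also takes, had no peak assigned to it.

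The cells came from CSE-KO mice labelled Cre-positive (3 libraries) and from WT mice labelled Cre-negative (3 libraries), and the labels call all of them lung endothelial cells. The mark was measured by CUT&RUN, in which a nuclease releases the DNA under an antibody-bound protein for sequencing. The Cre driver, the targeted allele, the strain, the age and the number of animals are not stated in the labels, so a p-value here reflects how far the libraries of a group differ, and part of that may be technical. Every CSE-KO library is Cre-positive and every WT library Cre-negative. The deposited columns of normalized values and RPKM, not used here, have names with a numeric prefix that also follows the groups. Effects of Cre, of any batch that the prefix marks and of CSE loss therefore cannot be told apart. No peak was assigned to Cth (0 peaks), so the mark at the targeted gene does not check the labels.

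Rab GTPases are molecular switches that sit on particular organelles when bound to GTP and recruit the tethers, motors and coats that move vesicles between organelles. VPS proteins, first found in yeast mutants that missort vacuolar proteins, build the complexes that act after them. HOPS and CORVET tether endosomes and lysosomes, GARP and EARP tether carriers that return to the Golgi or the surface, ESCRT sorts membrane proteins into the lysosome, and retromer and retriever bring them back. Sorting nexins bind endosomal lipids through a PX domain, and those with a BAR domain bend the membrane into tubules. In endothelial cells this machinery takes up and recycles cadherins, integrins and growth factor receptors and handles Weibel-Palade bodies, the storage granules of von Willebrand factor.

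Library totals over the peaks were 679938 to 1173016 counts in CSE-KO and 313610 to 676056 in WT, with WT replicate 2 the shallowest. The Rab, Vps and Snx peaks held 0.928%, 0.931% and 0.955% of the counts in CSE-KO replicates 1 to 3, against 0.936%, 0.940% and 0.969% in WT replicates 1 to 3, and these ranges overlapped. Endothelial markers fitted the labelled cell type: 17 of 18 had a peak, with Vwf the exception, and 11 had a promoter peak, among them Cdh5, Pecam1, Tie1 and Tek. Their summed promoter level was 1512 to 1774 CPM in CSE-KO and 1682 to 1791 CPM in WT. Of the markers of other cell types, 3 of 6 epithelial, 1 of 6 leukocyte and 1 of 6 fibroblast or mural genes had a peak, and none (0 in each list) had a promoter peak.

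Promoter sequences are given for genes of these families with and without the mark at their start. The Rab5 GTPases, which direct early endosome fusion, are shown because all of them had a promoter peak, with fitted differences of both signs between CSE-KO and WT. Rab1a, which directs traffic from the ER to the Golgi, had the highest promoter level per length of the set. Rab3c, a GTPase of synaptic vesicles, and Rab25, an epithelial relative of Rab11, had none in this table. Each sequence is read 5′ to 3′ on the gene's strand, from 170 bases before the RefSeq start to 30 bases from it, on GRCm38.p6, with every CpG in capitals. The positions are chr17:53479064-53479263 (plus strand) for Rab5a, chr10:128696239-128696438 (minus) for Rab5b, chr11:100738186-100738385 (minus) for Rab5c, chr11:20201242-20201441 (plus) for Rab1a, chr13:110280177-110280376 (minus) for Rab3c and chr3:88548250-88548449 (minus) for Rab25.
Rab5a: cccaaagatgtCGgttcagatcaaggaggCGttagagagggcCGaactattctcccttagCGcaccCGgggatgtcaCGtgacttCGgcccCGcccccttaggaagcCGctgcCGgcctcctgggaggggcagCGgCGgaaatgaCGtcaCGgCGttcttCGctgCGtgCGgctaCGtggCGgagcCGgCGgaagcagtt
Rab5b: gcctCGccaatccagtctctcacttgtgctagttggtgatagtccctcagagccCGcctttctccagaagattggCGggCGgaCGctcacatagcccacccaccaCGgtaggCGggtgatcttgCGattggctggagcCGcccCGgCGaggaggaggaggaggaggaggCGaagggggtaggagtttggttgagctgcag
Rab5c: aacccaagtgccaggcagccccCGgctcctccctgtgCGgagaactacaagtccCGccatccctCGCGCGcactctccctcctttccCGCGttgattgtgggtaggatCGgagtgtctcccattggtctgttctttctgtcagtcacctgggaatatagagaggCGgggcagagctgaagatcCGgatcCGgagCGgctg
Rab1a: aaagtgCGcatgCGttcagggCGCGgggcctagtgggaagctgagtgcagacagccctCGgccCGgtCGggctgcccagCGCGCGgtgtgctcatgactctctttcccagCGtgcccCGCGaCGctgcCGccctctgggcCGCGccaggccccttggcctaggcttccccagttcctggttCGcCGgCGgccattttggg
Rab3c: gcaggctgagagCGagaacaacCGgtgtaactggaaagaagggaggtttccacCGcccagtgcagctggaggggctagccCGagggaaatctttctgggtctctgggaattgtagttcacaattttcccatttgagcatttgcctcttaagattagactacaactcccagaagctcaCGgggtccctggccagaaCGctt
Rab25: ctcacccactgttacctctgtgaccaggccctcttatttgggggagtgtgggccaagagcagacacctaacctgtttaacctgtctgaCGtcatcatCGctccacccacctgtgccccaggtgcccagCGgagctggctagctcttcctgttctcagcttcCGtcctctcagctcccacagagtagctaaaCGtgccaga
These windows of 200 bases hold 22 CpGs at Rab5a, 12 at Rab5b, 13 at Rab5c and 20 at Rab1a, against 6 at Rab3c and 5 at Rab25. The deposited peak covered all 200 bases at Rab5a and Rab5b, the last 114 at Rab5c and the last 55 at Rab1a, and none (0) at Rab3c and Rab25.

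Over the families the difference in CpG number went the same way but was smaller, and it is given as a description. RefSeq windows of 300 bases, 250 before to 50 from the start, were at hand for 99 of the 134 coding genes that the name rule takes. The median CpG number was 25.5 in the 68 genes with a promoter peak and 20 in the 22 genes with no peak, or 18.5 in the 18 of these whose window no other gene's peak touched. Over all coding genes it was 22 in the 6093 with a promoter peak and 13 in all 17492 windows. The classes overlapped widely: Vps41 had a promoter peak with 6 CpGs in its window, and Rab6b had none with 42. Rab3c and Rab25, printed above, had 11 and 9 CpGs in these windows, below the median of the genes with no peak.

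Short motifs were counted on either strand of these windows. CACGTG, the core of the element read by TFEB, a regulator of lysosomal genes, lay in 13.2% of the windows with a promoter peak, against 11.1% for all coding genes with a promoter peak and 7.9% of all coding windows. It was also in 13.6% of the windows of the genes with no peak (3 of 22), or 11.1% (2 of 18) where no other gene's peak touched the window. The 9 genes with a promoter peak were Rab5a, Rab21, Rab3gap2, Snx5, Snx8, Vps16, Vps26a, Vps33a and Vps50, and the Rab5a match stands in the sequence printed above. The ETS-type motif CCGGAAG was in 19.1%, against 21.6% and 11.9%. The CCAAT box, searched by the letters of its name, was in 41.2%, against 39.7% and 39.0%. A TATA motif, searched as TATAAA, was in 4.41%, against 5.96% and 13.3%. In the 22 genes with no peak CCGGAAG was in 13.6%, CCAAT in 27.3% and TATAAA in 4.55%. In the 18 of these whose window no other gene's peak touched, the shares were 5.56%, 27.8% and 5.56%. None of these motifs contains another. These are matches of letters in a window and say nothing of bound factors.

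Most of the genes that the name rule takes had a peak under their own name in lung endothelial cells, and the share differed by role. Of the 134 coding genes, 96 (71.6%) had a peak and 84 (62.7%) a promoter peak, one whose centre lay within 1 kb of a start or that was annotated as promoter. Among all 21900 RefSeq coding genes these shares were 45.1% and 33.8%. Sorting nexins were the most complete family, with a promoter peak at 23 of 30 genes, followed by 25 of 35 Vps and 36 of 69 Rab-named genes.

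Every SNX-BAR nexin had a peak (12 of 12, with 11 at the promoter), and so did each early endosome Rab (9 of 9, with 7 at the promoter). The HOPS and CORVET group had promoter peaks at 7 of 8 genes. It counts Vps33b, a relative of the subunit Vps33a that is not itself a subunit of either complex. ESCRT subunits had promoter peaks at 7 of 9 genes, GARP and EARP subunits at 4 of 5 and recycling or surface delivery Rabs at 8 of 10. ER and Golgi Rabs had them at 7 of 14 genes and late endosome and lysosome Rabs at 4 of 12. The Rabs of regulated secretion stood at the other end, with a promoter peak at 1 of 9, Rab3a. Of the rest, Rab27a, which acts at secretory granules and Weibel-Palade bodies, and Rab3b had a distal peak only. No peak was assigned to Rab26, Rab27b, Rab37, Rab3c, Rab3d or Rab44, and the Rab26os promoter peak lay within 500 bp of an end of Rab26.

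**Figure D1:**
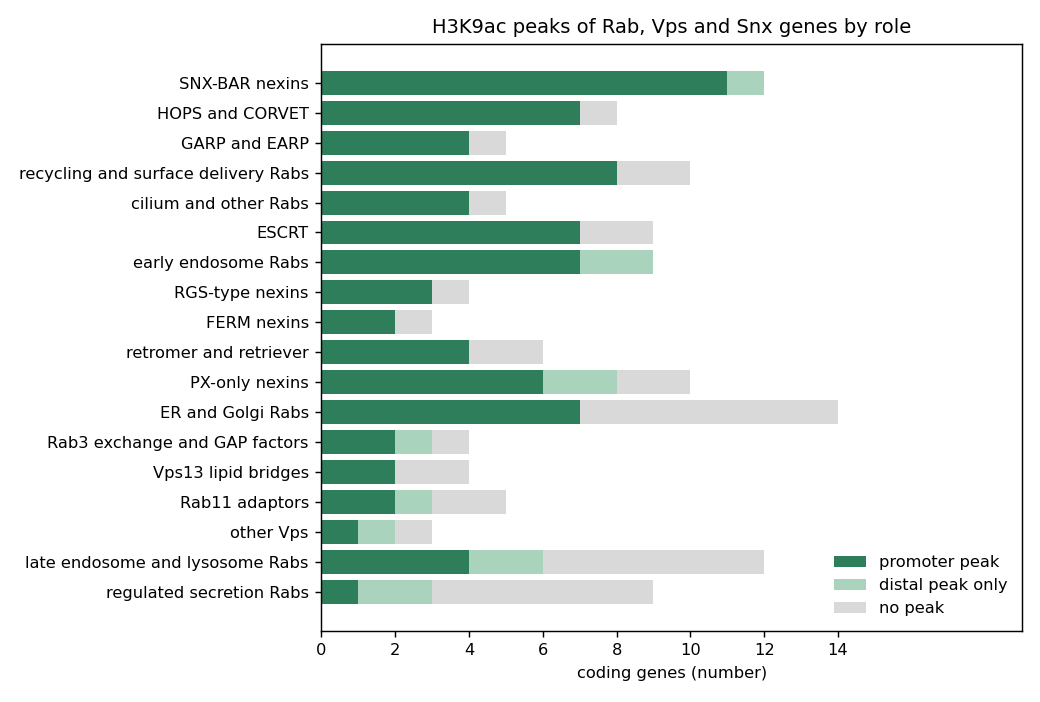
Number of coding genes with a promoter peak (dark), with distal peaks only (pale) and with no peak (grey) in the table, by role, on a linear axis. SNX-BAR nexins stand at 11 promoter peaks of 12 genes and regulated secretion Rabs at 1 of 9.

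A missing name did not always mean an unmarked promoter, because the deposited table gives each peak to 1 gene. The promoter windows of Rab24, Vps26b and Vps52 lay under peaks assigned to their neighbours Prelid1, Ncapd3 and Rps18. At Rab6a, a Golgi Rab, the peak assigned to Mrpl48 began 38 bp downstream of the start and reached only the last 12 of the 300 bases of the window. It had 85.8 ± 21.2 CPM in CSE-KO and 69.3 ± 21.2 CPM in WT (SD, n = 3 each). CPM are TMM-scaled counts that allow for the depth of each library. The peak over Vps26b, a retromer subunit, had 111.4 ± 10.4 CPM in CSE-KO and 83.5 ± 20.9 CPM in WT, with a fitted log2 value of CSE-KO over WT of 0.35 (SE 0.21, edgeR adjusted p = 0.775). Vps35, the retromer scaffold, had no peak under its own name, while a peak assigned to Orc6 within 500 bp of an end of the gene had 94.8 ± 13.5 CPM in CSE-KO and 95.2 ± 17.0 CPM in WT. Peaks assigned to other genes also lay within 500 bp of an end of Rab20, Rab30, Rab33a and Vps37a. Since such a peak may belong to either gene, these are left out of the counts of Rab, Vps and Snx peaks. The counts by role therefore depend in part on which gene each peak was assigned to.

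The promoter peaks lay mostly just inside the gene. Of 86 promoter peaks, 75 (87.2%) had their centre downstream of the start, against 82.0% of the promoter peaks of all genes, and the median centre was 266 bp downstream, against 276 bp. Their median width was 1109 bp, against 1073 bp. Promoter peaks made up 58.1% of the Rab, Vps and Snx peaks and 44.8% of all peaks, and 19.4% of their distal peaks were intergenic, against 40.1%.

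Promoter levels, given as CPM per kb of peak so that genes can be compared, differed several-fold among genes of like role. The median over 85 tested promoter peaks was 64.2 CPM per kb in CSE-KO and 64.8 in WT, against 60.7 in CSE-KO and 61.5 in WT over the 7784 tested promoter peaks of all genes. Averaged over both groups, Rab1a stood highest with 159.3 CPM per kb, above 99.5% of all tested promoter peaks. It was followed by Rab18, a Rab of the ER and lipid droplets (147.0), Rab5a (143.6), Rab7, the Rab of late endosomes (120.1), and Vps4b, an ATPase that takes ESCRT-III apart (118.3). The lowest levels among the tested promoter peaks were those of Rab29 (31.1), Rab4a (31.9), Rab3a (31.9) and Rab9 (34.0). Rab4a, which sorts cargo for fast recycling, and Rab5a thus stood at opposite ends although both act on early endosomes.

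**Figure D2:**
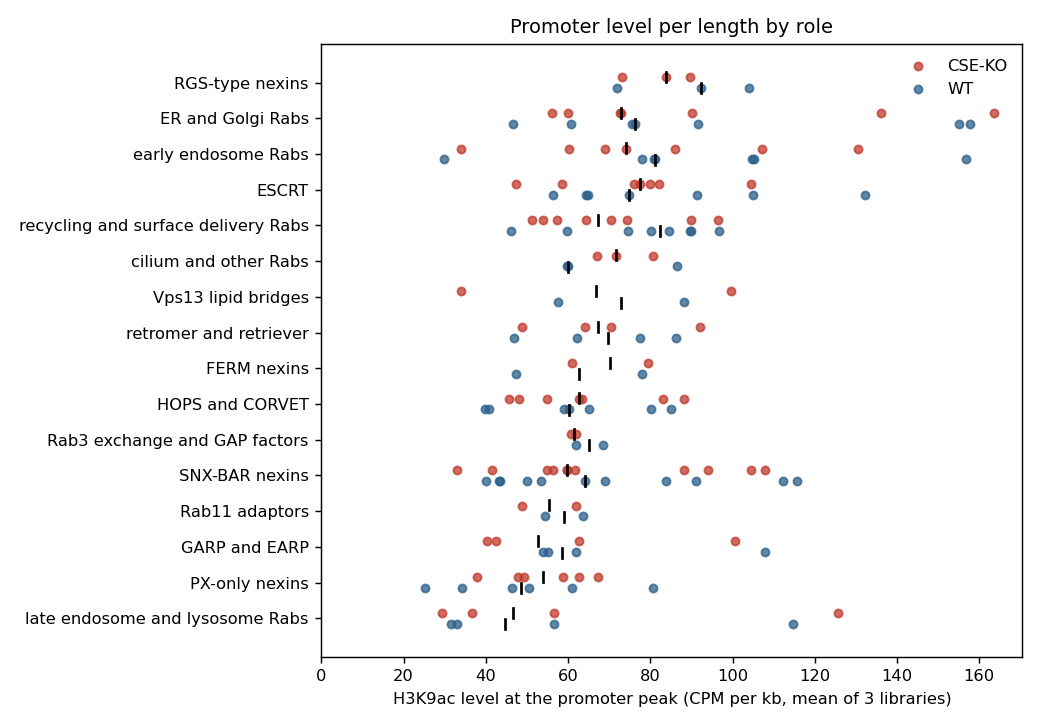
H3K9ac level at the promoter peak of each gene in CPM per kb on a linear axis, by role, for roles with at least 2 tested promoter peaks. Each point is the mean of 3 libraries (CSE-KO above, WT below) and black ticks are medians over genes. Rab1a has 163.6 CPM per kb in CSE-KO and 155.1 in WT, while the medians of the roles run between 46.6 and 83.9 in CSE-KO and between 44.7 and 92.2 in WT.

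At single genes no Rab, Vps or Snx peak passed the test between CSE-KO and WT. Counts were compared with edgeR's quasi-likelihood test over all peaks, with Benjamini-Hochberg adjustment over the 16134 peaks that passed the count filter and a threshold of 0.05. Of 148 peaks, 141 were tested and 0 were called, where 0.0868% of all tested peaks were. The smallest adjusted p was 0.598. DESeq2 and voom also called 0, where they called 0.0434% and 0.0806% of all tested peaks. Before adjustment, 8 peaks (5.67%) had p under 0.05 in edgeR, against 7.08% of all tested peaks. The count was 4 (2.84%) in DESeq2, against 3.51% of all, and 14 (9.93%) in voom, against 7.75%. Of the 8 in edgeR, 3 (2.13% of the 141) were higher and 5 (3.55%) lower in CSE-KO, where 3.01% and 4.07% of all tested peaks were. The libraries of the groups did not overlap at 5 peaks (3.55%) that were higher in CSE-KO and 12 (8.51%) that were lower, against 6.09% and 6.9% of all tested peaks. At promoters they did not overlap at 2 peaks (2.35%) that were higher and 9 (10.6%) that were lower, against 5.05% and 6.83% of the tested promoter peaks of all genes.

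The fitted differences were centred on 0. The median log2 fold change of CSE-KO over WT was -0.01 over the 141 peaks, with 67 above and 74 below 0 and a range of -0.99 to 1.00. Over all tested peaks the median was -0.00034, with 50.1% below 0. At promoters it was -0.01, with 39 peaks above and 46 below 0, against -0.02 and 53.0% below 0 for all promoters. By family the promoter median was -0.09 for Rab (15 above, 22 below), -0.07 for Vps (10 above, 15 below) and 0.03 for Snx (14 above, 9 below). At distal peaks the median was 0.0026, with 28 on each side.

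The precision allows limits to be set on changes relative to the other peaks, since the scaling sets the median near 0. The 95% interval of the fold change stayed within 2-fold in both directions at 95 of 141 peaks (67.4%), against 64.9% of all tested peaks, at 73 of 85 promoter peaks (85.9%), against 79.2% of all, and at 22 of 56 distal peaks (39.3%), against 51.6% of all. It stayed within 1.5-fold at 29 of the 141, against 3027 of all 16134 tested peaks. The SE of the log2 fold changes had a median of 0.25 at promoter peaks and 0.37 at distal peaks, which had median mean counts of 48 and 22.7 per library.

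**Figure D3:**
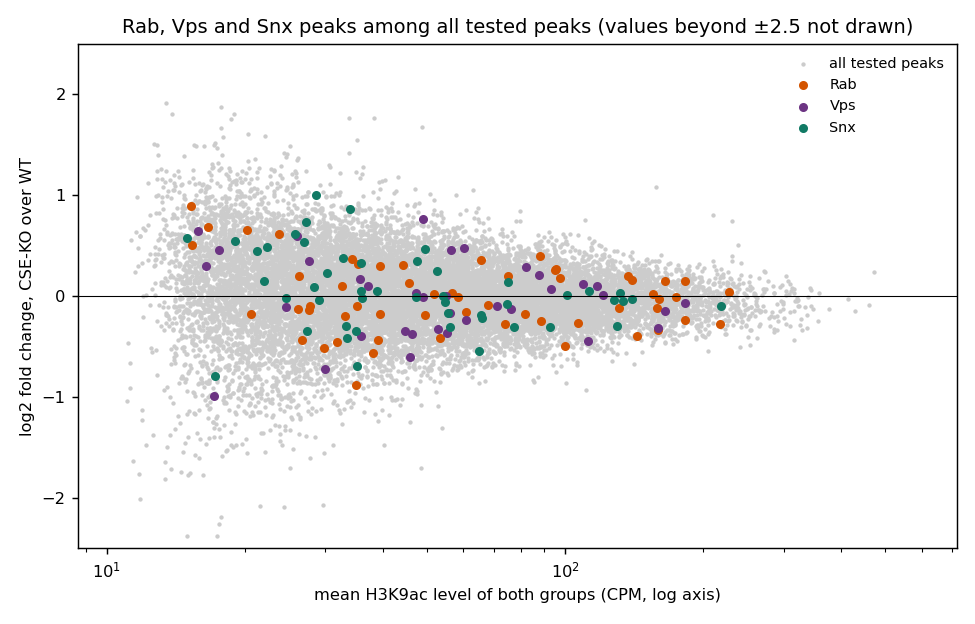
Log2 fold change of CSE-KO over WT against the mean H3K9ac level of both groups (CPM, log axis) for each tested peak, with 57 Rab, 36 Vps and 48 Snx peaks in colour over the 16134 tested peaks in grey. The coloured points lie between -0.99 and 1.00 and spread on both sides of 0.

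The early endosome Rabs held the promoter peak with the smallest p. Rab5b had 73.4, 95.5 and 78.4 CPM in CSE-KO and 96.9, 132.0 and 122.6 CPM in WT. Every CSE-KO library lay below every WT library, the nearest being CSE-KO replicate 2 and WT replicate 1. The log2 fold change was -0.49 (SE 0.21, 95% interval -0.92 to -0.07, unadjusted p = 0.024, edgeR adjusted p = 0.637). Rab5a, at a higher level, had 215.1, 179.1 and 198.1 CPM in CSE-KO and 257.4, 214.4 and 240.2 CPM in WT. CSE-KO replicate 1 lay just above WT replicate 2, and the log2 fold change was -0.27 (SE 0.15, interval -0.57 to 0.03). Rab5c had 146.0, 134.3 and 159.7 CPM in CSE-KO and 118.1, 148.5 and 132.7 CPM in WT, with overlapping groups and a log2 fold change of 0.16 (SE 0.18, interval -0.19 to 0.52). The promoters of the remaining early endosome Rabs, Rab21, Rab22a, Rab4a and Rab4b, had log2 fold changes of 0.02, -0.27, 0.20 and -0.43. Over all 7 promoters the median was -0.27, with 3 above and 4 below 0.

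None of the recycling and surface delivery Rabs passed the test. Rab11a, the Rab of the recycling endosome, had 165.0, 164.2 and 130.1 CPM in CSE-KO and 204.4, 145.2 and 144.5 CPM in WT. The groups overlapped, and the log2 fold change of -0.12 (SE 0.17) turned to 0.09 without WT replicate 1. Rab10, which carries cargo to the surface, had 179.7, 161.2 and 147.9 CPM in CSE-KO and 148.4, 287.0 and 173.0 CPM in WT. WT replicate 2 stood alone, and the log2 fold change of -0.24 (SE 0.18) was 0.03 without it. Rab8b, which also carries cargo to the surface and was added after its values were seen, had 37.2, 28.4 and 23.7 CPM in CSE-KO and 51.5, 59.4 and 28.6 CPM in WT. The groups overlapped, with a log2 fold change of -0.57 (SE 0.34, interval -1.25 to 0.12, edgeR adjusted p = 0.766). Rab11b (-0.28), Rab14 (-0.12) and Rab35 (-0.18) lay below 0, and Rab8a (0.19) and the junction-associated Rab13 (0.13) above it. Over the 8 promoters of this role 2 lay above and 6 below 0, with a median of -0.15.

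The ER and Golgi Rabs included the strongest promoter of the set. Rab1a had 180.6, 282.1 and 239.5 CPM in CSE-KO and 222.5, 194.6 and 248.6 CPM in WT. Its CSE-KO values enclosed all of the WT values, and the log2 fold change was 0.04 (SE 0.16, interval -0.28 to 0.36). Rab2a, which acts between the ER, the Golgi and lysosomes, had 123.5, 147.8 and 153.8 CPM in CSE-KO and 192.3, 181.5 and 159.6 CPM in WT. The groups did not overlap, with a log2 fold change of -0.34 (SE 0.17, interval -0.68 to 0.00013, edgeR adjusted p = 0.705). Rab18 had a log2 fold change of -0.25 (SE 0.22). The 7 promoters had a median of -0.03, with 3 above and 4 below 0.

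Among late endosome and lysosome Rabs, Rab7 had 177.1, 171.6 and 168.6 CPM in CSE-KO and 142.3, 165.0 and 164.6 CPM in WT. Its groups did not overlap, yet the difference was small (log2 fold change 0.15, SE 0.16, interval -0.18 to 0.47, edgeR adjusted p = 0.896). Rab9, Rab29 and Rab32 had log2 fold changes of 0.10, -0.10 and -0.01. Rab40c, grouped outside this role with other Rabs, has a SOCS box that binds a ubiquitin ligase. It had 126.1, 110.4 and 139.0 CPM in CSE-KO and 174.1, 132.0 and 178.1 CPM in WT. The groups overlapped at a single library each, with a log2 fold change of -0.39 (SE 0.18, unadjusted p = 0.030, edgeR adjusted p = 0.666).

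At ESCRT promoters the paralogues Vps4b and Vps4a had fitted values of opposite sign, a difference that was not itself tested. Vps4b had 148.6, 138.8 and 134.6 CPM in CSE-KO and 168.0, 194.6 and 171.4 CPM in WT, and the groups did not overlap (log2 fold change -0.32, SE 0.17, edgeR adjusted p = 0.731). Its paralogue Vps4a had 67.4, 71.6 and 59.1 CPM in CSE-KO and 37.9, 33.0 and 68.9 CPM in WT. There WT replicate 3 lay among the CSE-KO libraries, and the log2 fold change was 0.46 (SE 0.28, interval -0.11 to 1.03). Vps36, the ubiquitin-binding subunit of ESCRT-II, had 88.1, 119.4 and 78.4 CPM in CSE-KO and 112.0, 122.1 and 152.9 CPM in WT. Its CSE-KO replicate 2 lay within the WT range, with a log2 fold change of -0.45 (SE 0.20, unadjusted p = 0.032, edgeR adjusted p = 0.669). Over the 7 ESCRT promoters 2 lay above and 5 below 0, with a median of -0.17.

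The tethering complexes were spread on both sides of 0. Of 7 promoters of the HOPS and CORVET group, which counts Vps33b, 5 lay above and 2 below 0, with a median of 0.07. Vps33a, the Sec1/Munc18-type subunit that binds SNAREs, had 34.6, 29.9 and 47.3 CPM in CSE-KO and 54.5, 36.3 and 72.2 CPM in WT. The groups overlapped, with a log2 fold change of -0.61 (SE 0.31, interval -1.22 to 0.01, edgeR adjusted p = 0.720). Vps18, also a core subunit and chosen after its values were seen, had 70.5 ± 10.4 CPM in CSE-KO and 50.1 ± 11.7 CPM in WT (SD, n = 3 each; log2 fold change 0.48, SE 0.27), without overlap. Vps39 and Vps41, subunits of HOPS and not of CORVET, had 0.29 (SE 0.50) and 0.03 (SE 0.29). All 4 GARP and EARP promoters (Vps50, Vps51, Vps53 and Vps54) lay below 0, at -0.01, -0.35, -0.32 and -0.07, with overlapping groups at each.

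Retromer, retriever and lipid transfer genes gave the following. Vps26a, a retromer subunit, had 121.1 ± 28.4 CPM in CSE-KO and 113.5 ± 10.7 CPM in WT (log2 fold change 0.10, SE 0.20), and Vps29, which retromer and retriever share, 55.3 ± 8.25 CPM in CSE-KO and 66.7 ± 8.14 CPM in WT (-0.24, SE 0.27). The promoter of Vps26c, the retriever subunit, had 0.20 (SE 0.22). A peak in intron 1 of Vps26c (chr16:94518928-94520011) had 56.2, 52.2 and 76.9 CPM in CSE-KO and 43.9, 39.6 and 25.2 CPM in WT. The groups did not overlap at this intronic peak (log2 fold change 0.77, SE 0.30, unadjusted p = 0.015, edgeR adjusted p = 0.632). Vps13a, which carries lipids between membranes at contact sites, had a promoter peak of 25.1, 26.9 and 14.8 CPM in CSE-KO and 36.3, 39.6 and 37.0 CPM in WT. Those groups did not overlap either, at a low level and with a log2 fold change of -0.73 (SE 0.37, interval -1.48 to 0.02, edgeR adjusted p = 0.722). Vps13d, the other Vps13 gene with a promoter peak, had 116.0 ± 20.5 CPM in CSE-KO and 102.7 ± 25.1 CPM in WT. Its groups overlapped, with a log2 fold change of 0.12 (SE 0.21).

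**Figure D4:**
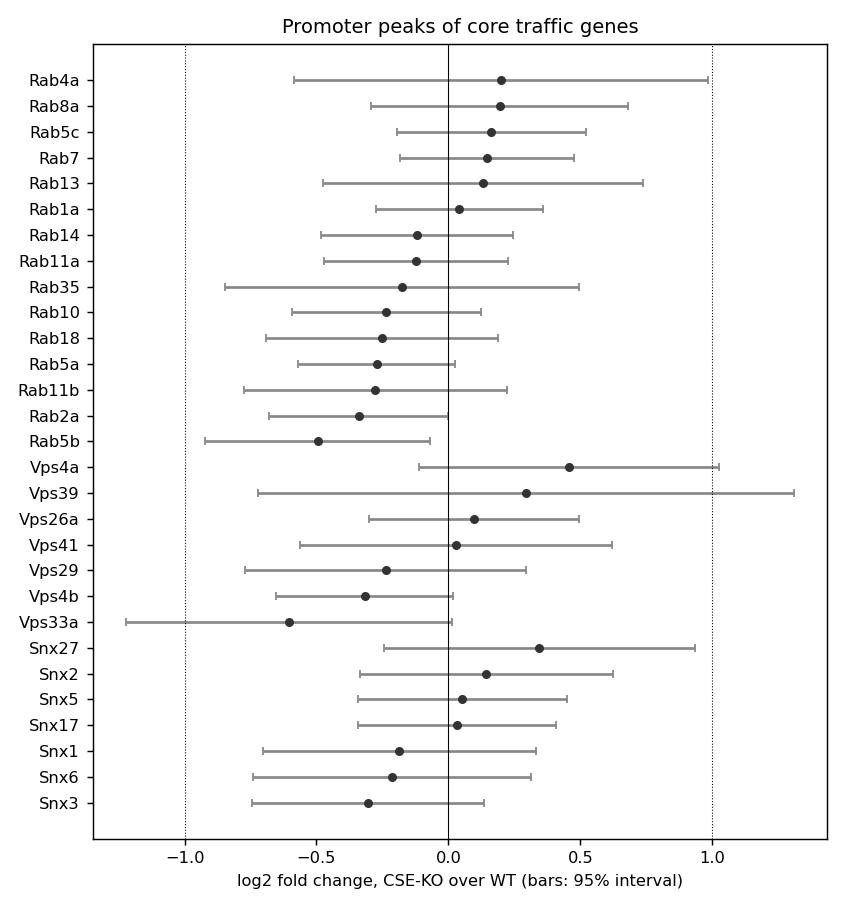
Log2 fold change of CSE-KO over WT with its 95% interval at the promoter peak of 29 core traffic genes, with dotted lines at a 2-fold change in each direction. The Rab5b interval (-0.92 to -0.07) is the only one drawn that leaves out 0, at an adjusted p of 0.637, and the intervals of Vps4a, Vps39 and Vps33a reach past 2-fold.

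No sorting nexin promoter passed the test. The retromer-linked SNX-BAR genes Snx1, Snx2, Snx5 and Snx6 had log2 fold changes of -0.19, 0.14, 0.05 and -0.21, with SE between 0.20 and 0.26. Snx9, which works with dynamin at clathrin-coated pits, had 219.4, 203.0 and 211.4 CPM in CSE-KO and 219.5, 237.5 and 225.1 CPM in WT. Those groups only just failed to overlap, and the log2 fold change was -0.10 (SE 0.15, interval -0.39 to 0.20). Snx17 and Snx27, nexins with a FERM domain that recycle integrins and receptors, had 0.03 (SE 0.19) and 0.35 (SE 0.29), and Snx3, a cargo adaptor of retromer, -0.31 (SE 0.22). The 11 SNX-BAR promoters had a median of -0.04 (5 above, 6 below 0) and the 6 PX-only promoters 0.05 (5 above, 1 below). At 4 of 23 Snx promoters (17.4%) the groups did not overlap, all lower in CSE-KO: Snx4, Snx7, Snx9 and Snx19. Of the tested promoter peaks of all genes, 6.83% were lower and 5.05% higher without overlap.

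Distal peaks, which had lower counts and larger SE than promoter peaks, gave the largest fitted differences. Of the 56 tested, 3 were higher and 2 lower in CSE-KO at an unadjusted edgeR p under 0.05. That was 8.93%, against 8.50% of the tested distal peaks of all genes. Snx29, a nexin gene with 7 peaks, had 2 of them close together in intron 11. The peak at chr16:11426098-11426854 had 38.0, 46.3 and 31.1 CPM in CSE-KO and 19.7, 16.5 and 20.2 CPM in WT, so that every CSE-KO library lay above every WT library. Its log2 fold change was 1.00 (SE 0.38, interval 0.23 to 1.77, unadjusted p = 0.012), with the adjusted p of 0.598 given above. The neighbouring peak at chr16:11423480-11424003 had 49.3, 59.7 and 26.6 CPM in CSE-KO and 34.8, 9.90 and 23.5 CPM in WT, with overlapping groups (log2 fold change 0.87, SE 0.37, edgeR adjusted p = 0.637). The strongest distal peak of the gene, in intron 13, had 152.1, 126.9 and 131.6 CPM in CSE-KO and 128.7, 165.0 and 137.8 CPM in WT (-0.03, SE 0.18). The Snx29 promoter peak had 40.2 ± 14.1 CPM in CSE-KO and 31.7 ± 5.28 CPM in WT (0.33, SE 0.34). The remaining peaks of the gene had log2 fold changes of -0.41, 0.47 and 0.57.

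Other distal peaks had fitted values below 0, and none of them passed the test. A peak in an intron of Rab43, a Golgi Rab (chr6:87805535-87806313), had 29.4, 23.9 and 16.3 CPM in CSE-KO and 36.3, 72.6 and 31.9 CPM in WT. The groups did not overlap, with WT replicate 2 far above the other libraries (log2 fold change -0.88, SE 0.37, edgeR adjusted p = 0.637). A peak in intron 2 of Snx9 (chr17:5888181-5888753) had 35.4, 25.4 and 19.2 CPM in CSE-KO and 40.9, 36.3 and 53.8 CPM in WT, narrowly without overlap (-0.69, SE 0.34, edgeR adjusted p = 0.702). Snx27 had a peak in intron 1, over a B1 repeat, with 52.4 ± 11.1 CPM in CSE-KO and 77.2 ± 24.9 CPM in WT (-0.55, SE 0.28). The peak in intron 6 of Vps53 had a low level, with 20.7, 10.5 and 1.48 CPM in CSE-KO and 30.3, 19.8 and 20.2 CPM in WT (-0.99, SE 0.52, interval -2.04 to 0.05).

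**Figure D5:**
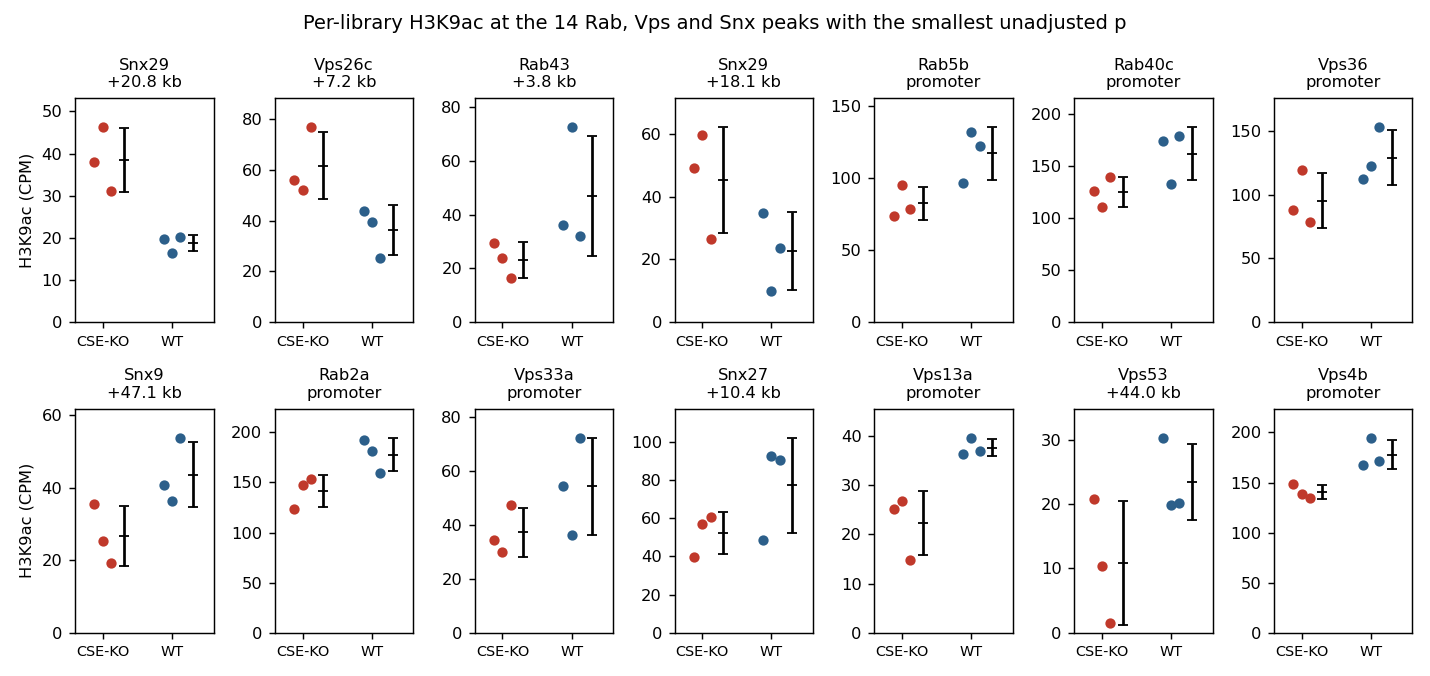
H3K9ac level in each library (CPM, linear axes from 0) at the 14 peaks with the smallest unadjusted p, with CSE-KO points in red and WT points in blue. Black marks beside the points are the mean and SD of 3 libraries, and none of the 14 peaks passed the test, with adjusted p from 0.598 to 0.731.

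The name on a distal peak is that of the nearest start and not always of the gene around it. Of 62 distal peaks, 39 lay in the RefSeq span of their own gene, 10 only in another coding gene and 13 in none. The distal peaks assigned to Snx11, 4 of its 5 peaks, lay in introns of Skap1, an adaptor gene of T cells, 29883 to 134956 bp from the Snx11 start. Those of Rab11a lay in Megf11 (2 peaks), those of Rab3gap1 in Zranb3 (2) and those of Vps33a in Clip1 (2). Repeats were annotated at 25.8% of the distal peaks, against 19.5% over all genes. One of these, in an L1 element in intron 1 of Snx9, had 127.2 CPM per kb in CSE-KO and 146.9 in WT, the fourth highest level per length of the set. The sources used here do not say how reads with several possible positions were counted.

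The filter on low counts removed 7 peaks: distal ones assigned to Rab18, Rab7, Rab3il1, Rab3b, Snx33 and Snx11, and the promoter peak of Rab40b. Their means were 4.50 to 18.6 CPM in CSE-KO and 6.48 to 19.6 CPM in WT. With no filter, all 148 were tested and 0 were called, against 0.067% of all peaks, with 12 (8.11%) at an unadjusted p under 0.05, against 7.49% of all.

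Genes that work with the Rabs, VPS complexes and nexins were counted in the same fit, and none of their peaks passed the test. Lists of Rab regulators and effectors, SNAREs, ESCRT and sorting genes outside the name rule, WASH and commander subunits, the exocyst, coats and adaptors and Weibel-Palade body genes held 262 genes, of which 223 had a peak. Of their 336 tested peaks 0 were called by edgeR, where 0.0868% of all tested peaks were. At an unadjusted edgeR p under 0.05, 11 (3.27%) were higher and 12 (3.57%) lower in CSE-KO, against 3.01% and 4.07% of all tested peaks. Their median log2 fold change was 0.0084. Rab regulators, the factors that load, unload and lipid-modify Rabs, had 6 higher and 2 lower of 85 peaks (9.41% in all, against 7.08% of all tested peaks) and a median of 0.11. Rab effectors had 3 higher and 5 lower of 41 (19.5%) and a median of 0.02. SNAREs had 0 of 55 (0.0%, median -0.04), coats and adaptors 0 higher and 1 lower of 64 (1.56%, median -0.03), and Weibel-Palade body genes 0 higher and 3 lower of 27 (11.1%, median -0.18). These lists were chosen with earlier results known, so the shares are descriptions and were not tested.

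A few peaks of these lists are named after their values were seen. The promoter of Rabggta, the alpha subunit of the enzyme that attaches geranylgeranyl lipids to Rabs, had 38.4 ± 3.00 CPM in CSE-KO and 16.1 ± 0.843 CPM in WT (SD, n = 3 each). This was the smallest p in these lists, with no overlap of the groups (log2 fold change 1.24, SE 0.40, unadjusted p = 0.0029, edgeR adjusted p = 0.446). Ehd4, which shapes recycling tubules, had a promoter peak of 108.8 ± 14.4 CPM in CSE-KO and 71.0 ± 11.5 CPM in WT (0.59, SE 0.22), while a peak 25739 bp from the start had 94.5 ± 25.1 CPM in CSE-KO and 134.9 ± 9.15 CPM in WT (-0.50, SE 0.20). The promoter of Anxa2, an annexin linked to Weibel-Palade body release, had 50.7 ± 8.12 CPM in CSE-KO and 76.8 ± 17.2 CPM in WT (-0.63, SE 0.26, edgeR adjusted p = 0.637). None of them passed the test.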

How the data were processed

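H3K9ac CUT&RUN libraries of isolated lung endothelial cells were compared, 3 from CSE-KO and 3 from WT mice, grouped by their titles. The submitters' processing notes list, with no order or settings, DESeq2 1.36.0, featureCounts, Picard 3.1.1, STAR 2.7.11a and Trimmomatic 0.39, and no peak caller. In the table that the authors deposited each line is a peak, with an unnormalized count of reads for every library. The 12 other per-library columns (normalized values and RPKM) were not used. The notes name mm39, but positions fit GRCm38: the start implied by a promoter peak lay within 100 bp of the RefSeq GRCm38.p6 start for 69 of 70 Rab, Vps and Snx promoter peaks that could be matched. Gene names, introns and repeats are those of the deposited annotation, and promoter sequences are RefSeq's.

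Counts were tested with edgeR 4.0.16 in R 4.3.3 (quasi-likelihood test, group only, TMM, filterByExpr with a minimum count of 10, two-sided, Benjamini-Hochberg over all tested peaks, threshold 0.05). The SE is the size of the log2 fold change over the square root of F, and 95% intervals use the test's degrees of freedom. The script was tested on simulated data. Within groups, library pairs differed by more than sampling noise (chi-square over its degrees of freedom, 1.87 to 2.15). Peaks with a centre within 1 kb of a start, or annotated as promoter, counted as promoter peaks. The scaling sets the median near 0, so an equal change at all peaks cannot be seen. Members and lists were chosen with earlier results of these data known. Named peaks are the 14 with the smallest p, the 6 with the highest level per length, the promoter peaks of 32 textbook genes where they have one, and all tested peaks of the 3 genes with the most peaks. Any other peak was picked with its values known. The alternatives tried were RLE size factors, library size alone, DESeq2 1.42.0, voom (limma 3.58.1), robust dispersion, no filter, a minimum mean count of 50, MuLV-int proviral peaks left out, a replicate block, each library left out, and for promoters a distance of 3 kb or 1 peak per gene.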

Additional observations from a re-analysis of the deposited data

How the results depend on the processing

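No Rab, Vps or Snx peak was called in any of the 16 fits (0 in each), and the smallest adjusted p lay between 0.427 (Rab28, edgeR, without WT replicate 3) and 1.0 (DESeq2). When single libraries were left out, the log2 fold change of the peaks had a median between -0.0311 and 0.0273, and the promoter peaks one between -0.0749 (without WT replicate 1) and -0.0121. The cause was not tested. The count of peaks called over the whole table was 14, and 7 by DESeq2, 2 with the MuLV-int peaks left out, 8 at a mean count of 50 or more, and 6 to 13 with 1 library left out. The replicate numbers showed little sign of pairing. The correlation of same-numbered deviations was 0.065, 0.014 and 0.006, against -0.035 to 0.018 between differently numbered libraries. Counting noise keeps such values near 0, so pairing is not excluded. With the replicate block 0 Rab, Vps or Snx peaks were called, 10 (7.09%, against 7.07% of all tested peaks) had an unadjusted p under 0.05 and the median was -0.00393, while 15 peaks of the whole table were called.

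Of 750 values of the 52 named peaks under these alternatives, 720 kept their sign and their side of the threshold. The other 30 changed sign, all of them uncalled before and after. With voom they were Rab1a (-0.0505), Snx11 at 96725852 (0.0524), Snx29 at 11455577 (0.000875) and Vps41 (-0.0245), and with the replicate block Snx11 at 96725852 (0.0594). With 1 library left out in turn the log2 fold change crossed 0 at the following peaks. It ranged from -0.428 to 0.0298 at Rab10, -0.234 to 0.0885 at Rab11a, -0.0465 to 0.44 at Rab13, -0.112 to 0.217 at Rab1a, -0.472 to 0.0857 at Rab35, and -0.0642 to 0.39 at Rab4a. At Snx genes it ranged from -0.322 to 0.0268 (Snx1), -0.00225 to 0.282 (Snx2), -0.0597 to 0.172 (Snx5), -0.0474 to 0.173 (Snx17) and -0.127 to 0.0489 (Snx29 at 11455577). It ranged from -0.364 to 0.549, -0.913 to 0.0197 and -0.0891 to 0.179 at the Snx11 peaks at 96725852, 96747480 and 96777017, and from -0.272 to 0.159 and -0.526 to 0.036 at the Snx9 peaks at 5821561 and 5846211. At Vps26a it ranged from -0.0485 to 0.261 and at Vps41 from -0.0481 to 0.147. WT replicate 2 was the shallowest library, with 313610 counts.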
